A study of Homo sapiens with 8 samples.

Results

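The genes described here are 10 genes of the endoplasmic reticulum (ER) unfolded protein response, HSPA5, HSP90B1, CALR, PDIA4, DNAJB9, XBP1, ATF6, HERPUD1, SEL1L and EDEM1. They were picked by symbol out of 23885 genes in the deposited tables, each represented by the transcript row with its highest mean count. All 10 passed the filter on low counts and were tested among 15723 genes. The cells were of HCT-116, an established line from a human colorectal cancer, in McCoy's 5A medium. A first treatment of 12 h was DMSO or 5-fluorouracil at 40 µM (5-FU, a pyrimidine antimetabolite used in chemotherapy), and after a wash a second one of 4 h was DMSO or 3-MB-PP1 at 2.5 µM. The latter compound blocks kinases whose ATP pocket was enlarged by design. No kinase allele is named in the labels, and the title of the series names the p53 program and Cdk7 inhibitors. The 4 groups, with 2 libraries each and 8 in all, are called vehicle (DMSO, then DMSO), 5-FU alone (5-FU, then DMSO), 3-MB-PP1 alone (DMSO, then 3-MB-PP1) and 5-FU then 3-MB-PP1. All 4 groups are of the same line, and the labels do not say whether the replicates were separate cultures, so the tests measure the spread between these libraries, which may be technical.

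The ER folds and modifies secreted and membrane proteins. When unfolded proteins build up in it, the sensors IRE1, PERK and ATF6 start the unfolded protein response. ATF6 is cut in the Golgi to release a transcription factor, IRE1 splices the XBP1 mRNA so that it encodes an active factor, and PERK phosphorylates eIF2 alpha and favours translation of ATF4. The factors raise transcription of ER chaperones such as HSPA5 (BiP) and of the machinery that draws misfolded proteins out of the ER for degradation (ER-associated degradation, ERAD). ATF6 and XBP1 act on many of these genes through the ER stress response element, in which CCAAT, bound by NF-Y, stands at a fixed distance from CCACG.

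HSPA5, HSP90B1, CALR and XBP1 held this element in their promoters, HERPUD1 held a shorter form of it, and the other genes held neither. The promoter sequences of these 5 of the 10 genes are printed here. They come from RefSeq windows of assembly GRCh38.p14, 300 bases long, from 250 bases before to 50 bases after each annotated start, and all 10 genes were matched, in 12 windows. Each line is written 5′ to 3′ on the gene's strand with 20 bases on either side of the element or elements, which are in capitals. The stretches are chr9:125241371-125241429 (minus strand) for HSPA5, chr12:103930196-103930359 (plus) for HSP90B1, chr19:12938364-12938422 (plus) for CALR, chr22:28800583-28800641 (minus) for XBP1 and chr16:56932005-56932055 (plus) for HERPUD1.
HSPA5: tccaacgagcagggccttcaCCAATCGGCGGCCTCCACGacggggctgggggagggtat
HSP90B1: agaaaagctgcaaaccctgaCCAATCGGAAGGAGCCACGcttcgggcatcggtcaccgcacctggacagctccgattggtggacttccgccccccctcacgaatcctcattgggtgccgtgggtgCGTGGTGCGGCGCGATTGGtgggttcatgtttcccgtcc
CALR: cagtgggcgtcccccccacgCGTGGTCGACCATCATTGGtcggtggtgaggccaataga
XBP1: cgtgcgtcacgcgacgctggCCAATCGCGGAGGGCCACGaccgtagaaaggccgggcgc
HERPUD1: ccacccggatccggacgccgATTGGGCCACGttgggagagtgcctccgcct

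The long form searched was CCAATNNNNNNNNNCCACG and the short form ATTGGNCCACG, on both strands and without any mismatch. Both forms contain CCACG together with CCAAT or its reverse complement, and no stretch matched both. HSPA5 held the long form at -66 to -48 and XBP1 at -52 to -34, counted from the annotated start. HSP90B1 held the long form in 2 places, at -194 to -176 on the gene's strand and at -89 to -71 on the opposite strand. CALR held it on the opposite strand at -225 to -207, and HERPUD1 held the short form at -117 to -107. The long form was found in 27 of all 35116 windows (0.0769%) and the short form in 19 (0.0541%). CCAAT alone was present in 34.6% of windows and CCACG alone in 38.1%, and each was present in a window of 9 of the 10 genes, ATF6 being the exception for both. The UPR element TGACGTGG, found in 256 windows (0.729%), was not among the letters of the 12 windows, which says only that these letters are not in these windows. Matches are descriptions of letters, and no binding was measured in this series.

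**Figure D1:**
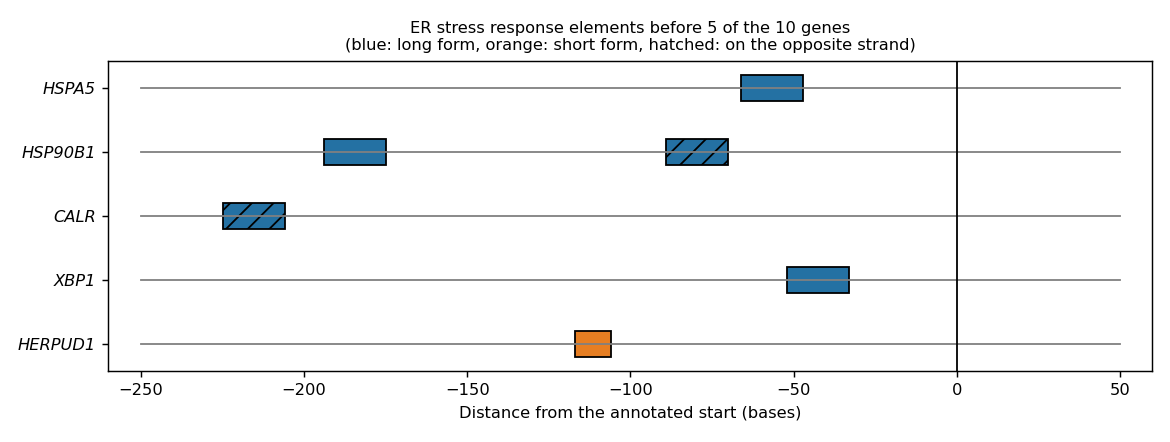
Position of the ER stress response elements in the RefSeq promoter windows of 5 of the 10 genes, in bases from the annotated start (x axis); boxes are matches to the long form (blue) or the short form (orange), and hatched boxes lie on the opposite strand. HSP90B1 holds 2 elements, and the elements of HSPA5 and XBP1 are the closest to the start.

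Gene counts ranged from 10580635 to 50503796 per library, and the deepest and the shallowest library were replicates 1 and 2 of 3-MB-PP1 alone. The 10 genes together took 0.208% to 0.282% of the gene counts. Levels across libraries are given as CPM, counts scaled to library size with TMM factors in edgeR, in the order replicate 1, replicate 2. All 6 epithelial markers were detected in every library. Their summed level was 2738 to 2907 CPM without 5-FU and 4259 to 4876 CPM with it, a difference whose part in the results was not tested. With 5-FU alone 4 of the 6 rose, 1 fell and 1 did not pass, where 21.2% of all tested genes rose and 22.7% fell. The 8 markers of other cell types summed to 25.5 to 33.0 CPM, with 0 to 2 of them at 0 in each library. The T cell marker CD3E had 0 or 1 count, whereas COL1A1 (140 to 607 counts), CD68 (69 to 385) and PECAM1 (51 to 304) were present in every library. Of the 3 markers that were tested, 1 rose with 5-FU alone. CDKN1A, the p53 target p21 used as a check of the 5-FU label, was 2.98 log2 higher with 5-FU alone (SE 0.05, adjusted p = 9.08e-24, edgeR). The ERCC spike-ins took 2.18% to 4.16% of the authors' library totals. Scaling by them moved the median of all tested genes from 0.0027 to 0.13 for 5-FU and from -0.01 to 0.19 for 3-MB-PP1, each alone, on the log2 scale, so all changes here are relative to the other genes. In bulk RNA, fewer cells of a kind and less RNA per cell cannot be told apart.

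Levels between genes were compared per transcript length, as the authors' RPKM. In vehicle, CALR stood highest at 392.6 ± 6.7 RPKM (SD, n = 2) and HSP90B1 next at 368.7 ± 9.9. PDIA4 had 108.0 ± 7.1, HSPA5 55.8 ± 1.2, XBP1 29.7 ± 0.2 and HERPUD1 11.6 ± 0.3 RPKM. SEL1L at 8.76 ± 0.61 and ATF6 at 8.66 ± 0.33 RPKM overlapped between their libraries. DNAJB9 at 4.19 ± 1.20 and EDEM1 at 2.93 ± 0.51 RPKM differed by about the spread of DNAJB9. CALR and HSP90B1 lay above 98.9% and 98.8% of tested genes and EDEM1 above 31.9%. HSP90B1 and CALR exchanged ranks with 3-MB-PP1 alone, at 409.4 ± 11.1 and 384.9 ± 3.3 RPKM. HSPA5 held place 4 among the 10 genes in each of the 4 groups.

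**Figure D2:**
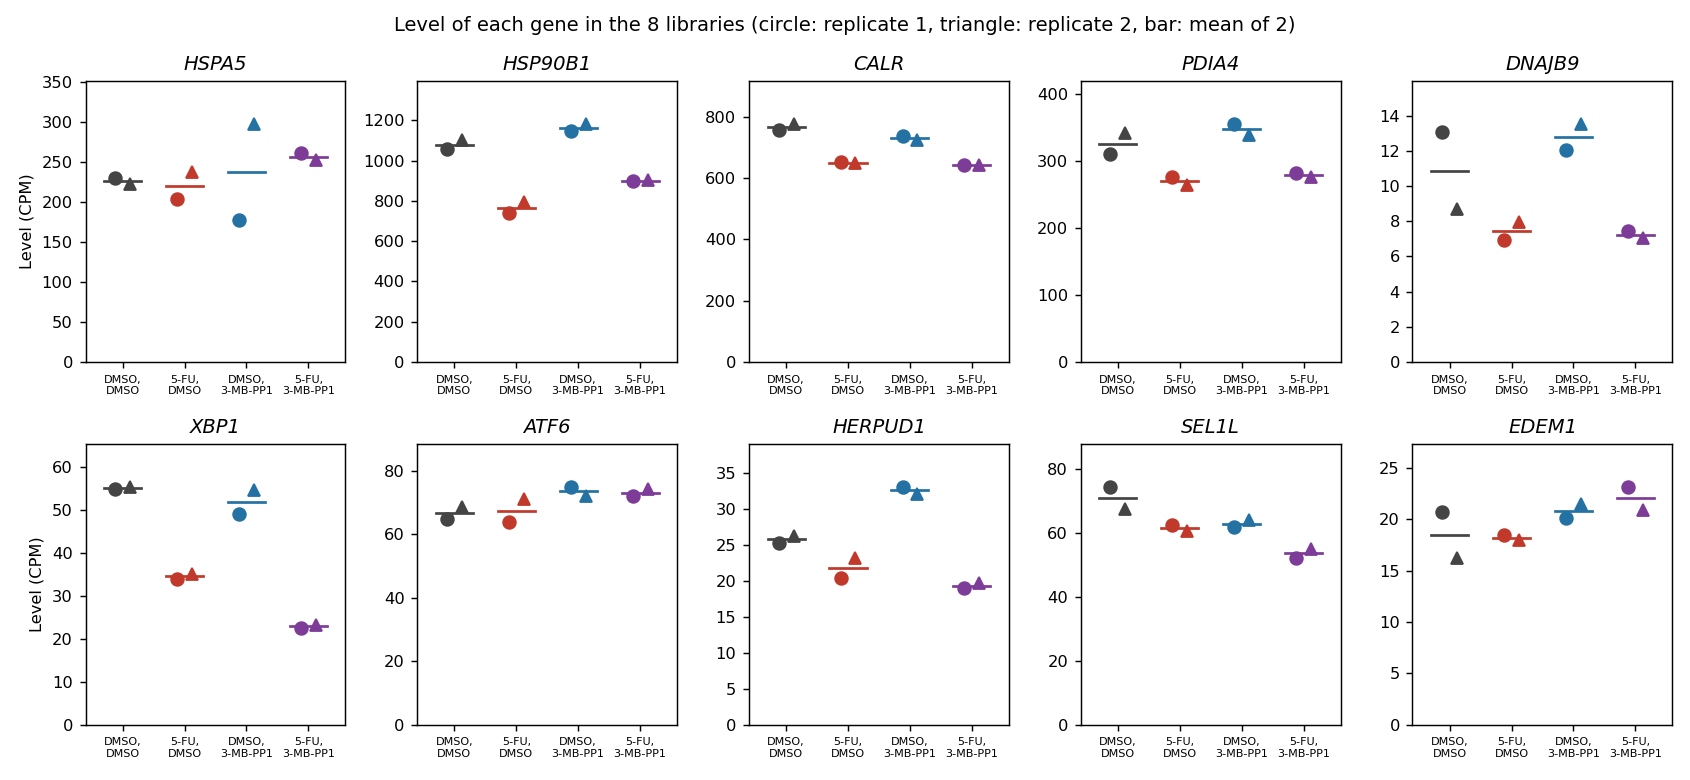
Level of each of the 10 genes in CPM (y axis, from 0) in the 4 groups (x axis, the treatment of 12 h above that of 4 h); circles are replicate 1, triangles replicate 2, and bars the mean of both libraries. XBP1 steps down from 55 CPM in vehicle to 22 and 23 CPM after both drugs, and the libraries of 3-MB-PP1 alone lie far apart for HSPA5.

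After 5-FU alone, 7 of the 10 genes fell and the other 3 did not pass the test, against 22.7% of all tested genes that fell and 21.2% that rose (43.9% called). Calls here rest on edgeR's quasi-likelihood test at an adjusted p under 0.05, whatever the size of the change. The genes that fell were XBP1, DNAJB9, HSP90B1, PDIA4, CALR, HERPUD1 and SEL1L, by 0.68 down to 0.21 on the log2 scale. HSPA5, ATF6 and EDEM1 had values of -0.04, 0.01 and -0.02. The median of the 10 genes was -0.24, beside 0.0027 over all tested genes. DESeq2 called 4 of the 10, namely XBP1, HSP90B1, PDIA4 and CALR, and the same 4 were called without replicate 1 of vehicle.

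With 3-MB-PP1 already on both sides of the comparison, 7 of the 10 genes were again lower after 5-FU then 3-MB-PP1 than after 3-MB-PP1 alone, where 19.8% of all tested genes fell and 19.6% rose (39.5% called). These 7 genes were XBP1, DNAJB9, HERPUD1, HSP90B1, PDIA4, SEL1L and CALR, with log2 values of -1.16, -0.79, -0.76, -0.37, -0.32, -0.22 and -0.19. HSPA5 had 0.14, EDEM1 0.10 and ATF6 -0.02, and none of the 3 passed. DESeq2 called 7 genes as well. After 5-FU then 3-MB-PP1 against vehicle, 7 genes were lower, where 26.2% of all tested genes fell and 23.9% rose (50.1% called). XBP1 had -1.27, DNAJB9 -0.59, HERPUD1 and SEL1L -0.41 each, HSP90B1 and CALR -0.26 each and PDIA4 -0.22, with a median of -0.26 for the 10 genes beside -0.0033 over all tested genes. Without replicate 1 of vehicle DNAJB9 had -0.27 and did not pass (adjusted p = 0.272).

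Fewer of the 10 genes, and fewer of all tested genes, passed in the comparisons of 3-MB-PP1. With 3-MB-PP1 alone against vehicle, HERPUD1 rose and SEL1L fell, and 8 did not pass, against 11.5% of all tested genes that rose and 16.9% that fell (28.5% called). With 3-MB-PP1 after 5-FU against 5-FU alone, HSP90B1 rose, XBP1 and SEL1L fell, and 7 did not pass, against 15.7% that rose and 17.2% that fell (32.9% called). The call of SEL1L there was lost in DESeq2 and when any single library of the groups compared was left out. Of the 10 genes 10% rose and 10% fell in the first of these comparisons, and 10% rose and 20% fell in the other. These shares were near or below those over all tested genes. The medians of the 10 genes were 0.10 and 0.02, and 0.33 and -0.10 under spike-in scaling. The comparisons share libraries, so their values are set side by side and no overlap between them is read.

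**Figure D3:**
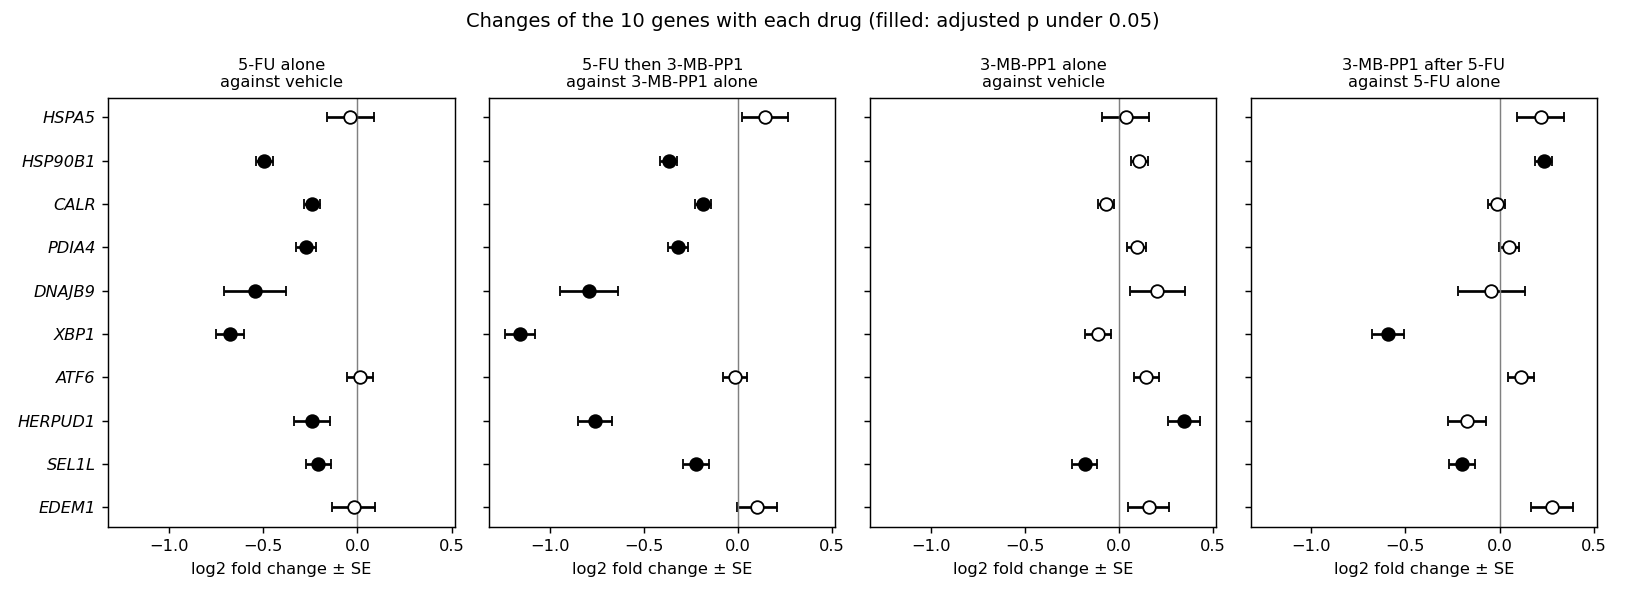
Log2 fold change ± SE (x axis) of each of the 10 genes (rows) in 4 comparisons, from edgeR; filled points had an adjusted p under 0.05. The 2 left panels, both for 5-FU, each show 7 filled points below 0, and the 2 right panels, both for 3-MB-PP1, show 2 and 3 filled points; scaling by the spike-ins turned the sign of SEL1L with 3-MB-PP1 alone to 0.06.

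Among the chaperones, HSPA5 (chr9:127997127-128003666 in hg19), the ER Hsp70 that binds unfolded chains and holds the sensors inactive, had no called change in any comparison of the model with all 8 libraries. Its levels were 230.2 and 223.2 CPM in vehicle, 203.5 and 237.9 after 5-FU alone, 177.8 and 298.0 after 3-MB-PP1 alone, and 261.5 and 252.2 after 5-FU then 3-MB-PP1. The libraries of 3-MB-PP1 alone were the lowest and the highest of all 8, and they enclosed every other library. They differed 1.68-fold, and of 1575 genes of like level (within 2.0-fold in mean CPM) 2 had a gap as large in that group, HSPA5 included. The change with 3-MB-PP1 alone was 0.04 (SE 0.12, adjusted p = 0.864), but it was 0.39 (adjusted p = 9.65e-05, edgeR) without replicate 1 and -0.35 (adjusted p = 0.000194) without replicate 2 of that group, so it has no direction in these libraries.

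HSPA5 was higher in both libraries of 5-FU then 3-MB-PP1 than in both libraries of 5-FU alone, a change of 0.22 (SE 0.12) that did not pass (adjusted p = 0.186, edgeR). Without either library of 3-MB-PP1 alone, which is on neither side of that comparison but enters the estimate of the spread, the change was 0.22 and passed (adjusted p = 0.00347 without replicate 1 and 0.00359 without replicate 2). Against vehicle the value of 5-FU then 3-MB-PP1 was 0.18 (adjusted p = 0.242), and it passed in the same fits (adjusted p = 0.00995 and 0.0101). Both values also passed without the filter on low counts, at 0.20 (adjusted p = 0.00242) and 0.16 (adjusted p = 0.0119). The tested genes whose log2 CPM correlated best with HSPA5 over the 8 libraries were B4GALT1 (Pearson r = 0.94), PPP2R2C (0.92), FAM98B (0.92), DHX33 (0.92) and C10orf46 (0.91). This is a description over libraries that share 4 groups, and in all 5 genes replicate 2 of 3-MB-PP1 alone stood above replicate 1, as it did in HSPA5.

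HSP90B1 (GRP94, chr12:104324112-104341708 in hg19), the ER Hsp90 that folds integrins and Toll-like receptors, had 1058 and 1100.1 CPM in vehicle. It had 737.2 and 793.5 CPM after 5-FU alone, 1145 and 1182 after 3-MB-PP1 alone, and 896.9 and 905.0 after 5-FU then 3-MB-PP1. All 4 libraries with 5-FU lay below all 4 without it. With 5-FU alone it fell by 0.50 on the log2 scale (SE 0.04, adjusted p = 1.10e-09, edgeR), and its mean level fell by 29.1%. With 3-MB-PP1 after 5-FU it rose by 0.24 (SE 0.04, adjusted p = 0.000258) and was 0.26 below vehicle (adjusted p = 2.82e-05). With 3-MB-PP1 alone its value was 0.11 (adjusted p = 0.0720), and it passed without either library of 5-FU alone (adjusted p = 0.0367 and 0.0463). The microRNA gene MIR3652 lies inside HSP90B1 on the same strand, with a mean of 94.6 counts against 18359 for HSP90B1.

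CALR (calreticulin, chr19:13049414-13055304), the soluble lectin of the cycle that folds glycoproteins, had 757.8 and 777.0 CPM in vehicle and 650.9 and 648.7 with 5-FU alone. With 3-MB-PP1 alone it had 737.5 and 724.0, and with 5-FU then 3-MB-PP1 642.5 and 642.2. The libraries with 5-FU lay below all others. CALR fell by 0.24 (SE 0.04, adjusted p = 4.89e-05, edgeR) with 5-FU alone and was 0.19 lower (adjusted p = 0.000976) with 5-FU then 3-MB-PP1 than with 3-MB-PP1 alone. CANX, its membrane-bound partner, fell by 0.27 with 5-FU alone (SE 0.04, adjusted p = 1.03e-05) and rose by 0.21 with 3-MB-PP1 after 5-FU (adjusted p = 0.000383), a comparison in which CALR had -0.02.

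PDIA4 (ERp72, chr7:148700154-148725782), a protein disulfide isomerase that forms and exchanges disulfide bonds, had 310.8 and 341.3 CPM in vehicle, 275.6 and 263.7 after 5-FU alone, 355.6 and 339.2 after 3-MB-PP1 alone, and 282.2 and 275.9 after 5-FU then 3-MB-PP1. Again the 4 libraries with 5-FU lay below the 4 without it. The fall with 5-FU alone was 0.27 (SE 0.05, adjusted p = 0.000129, edgeR), and with 3-MB-PP1 on both sides it was 0.32 (adjusted p = 2.34e-05). 3-MB-PP1 gave 0.09 without 5-FU and 0.05 after it, and neither passed.

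DNAJB9 (ERdj4, chr7:108210189-108215294), a J-domain co-chaperone of HSPA5 that also restrains IRE1, was the gene with the fewest counts, 91 to 619 per library. It had 13.1 and 8.68 CPM in vehicle, 6.91 and 7.97 after 5-FU alone, 12.1 and 13.5 after 3-MB-PP1 alone, and 7.44 and 7.02 after 5-FU then 3-MB-PP1. The gap between the vehicle libraries was larger than that of 98.6% of 3669 genes of like level, and the lower was close to the libraries with 5-FU. With 5-FU alone it fell by 0.54 (SE 0.16, adjusted p = 0.00886, edgeR). Without replicate 1 of vehicle the value was -0.21 and did not pass (adjusted p = 0.397), and neither did the value without replicate 1 of 5-FU alone (-0.44, adjusted p = 0.0909) or that of DESeq2 with all libraries (adjusted p = 0.0506). The fall with 5-FU under 3-MB-PP1 was 0.79 (SE 0.16, adjusted p = 0.000211, edgeR). The vehicle libraries are on neither side of that comparison but enter the estimate of the spread. The fall kept its direction in each of the 8 fits that left out a library.

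Among the transcription factors, XBP1 (chr22:29190548-29196560 in hg19) had the largest fall of the 10 genes with 5-FU alone, with 3-MB-PP1 after 5-FU, with 5-FU under 3-MB-PP1 and with both drugs against vehicle. It had 55.0 and 55.5 CPM in vehicle, 33.9 and 35.1 after 5-FU alone, 49.0 and 54.6 after 3-MB-PP1 alone, and 22.5 and 23.3 after 5-FU then 3-MB-PP1. The replicates lay close together, and no library of a group with 5-FU overlapped a library of any other group. XBP1 fell by 0.68 with 5-FU alone (SE 0.08, adjusted p = 4.92e-08, edgeR), and its level fell by 37.4%. It fell by a further 0.59 with 3-MB-PP1 after 5-FU (SE 0.09, adjusted p = 8.95e-06) and was 1.27 below vehicle after both drugs (SE 0.08, adjusted p = 1.92e-12), where its level fell by 58.5%. With 3-MB-PP1 alone the value was -0.11 (adjusted p = 0.261).

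The tables list 2 XBP1 transcripts of 1820 and 1794 bases, the unspliced and the spliced forms, and their counts differed by at most 1 read in every library. The counts therefore give the total XBP1 mRNA, and the IRE1-spliced share was not analysed here. ATF6 (chr1:161736034-161933860), the transmembrane precursor of the other factor, is activated by cleavage, which RNA levels do not show. It had 65.0 and 68.7 CPM in vehicle, 63.9 and 71.1 after 5-FU alone, 75.1 and 72.2 after 3-MB-PP1 alone, and 72.0 and 74.2 after 5-FU then 3-MB-PP1. ATF6 had no called change, and its largest value was 0.15 with 3-MB-PP1 alone (SE 0.07, adjusted p = 0.106, edgeR), where the libraries lay above those of vehicle.

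Among the ERAD genes, HERPUD1 (HERP, chr16:56965748-56977793 in hg19), an ER membrane protein that brings the ligase HRD1 together with its partners, had 25.3 and 26.2 CPM in vehicle. It had 20.3 and 23.2 after 5-FU alone, 33.1 and 32.1 after 3-MB-PP1 alone, and 19.0 and 19.7 after 5-FU then 3-MB-PP1. No group overlapped another. The highest level followed 3-MB-PP1 alone and the lowest followed both drugs. HERPUD1 rose by 0.35 with 3-MB-PP1 alone (SE 0.09, adjusted p = 0.00373, edgeR), or 27.1%, and missed the threshold without replicate 1 of that group (0.32, adjusted p = 0.0630). It was 0.76 lower with 5-FU then 3-MB-PP1 than with 3-MB-PP1 alone (SE 0.09, adjusted p = 2.17e-07). Its fall of 0.24 with 5-FU alone was near the threshold (adjusted p = 0.0416), and DESeq2 did not call it (adjusted p = 0.171). It was also lost in 5 of the 8 fits that left out a library, with values of -0.15 to -0.26 and adjusted p from 0.0693 to 0.317.

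SEL1L (chr14:81937891-82000205), the adaptor that hands substrates to HRD1, was lowest after both drugs. It had 74.5 and 67.6 CPM in vehicle, 62.4 and 60.7 after 5-FU alone, 61.8 and 64.0 after 3-MB-PP1 alone, and 52.1 and 55.1 after 5-FU then 3-MB-PP1. Both libraries after both drugs lay below all others, and both vehicle libraries above all others. SEL1L was 0.41 below vehicle after both drugs (SE 0.07, adjusted p = 2.95e-05, edgeR). The single steps were smaller and near the threshold. SEL1L fell by 0.21 with 5-FU alone (SE 0.07, adjusted p = 0.0147), by 0.18 with 3-MB-PP1 alone (SE 0.07, adjusted p = 0.0414) and by 0.20 with 3-MB-PP1 after 5-FU (SE 0.07, adjusted p = 0.0309). DESeq2 called none of these 3 (adjusted p = 0.0682, 0.183 and 0.116), and spike-in scaling gave -0.07, 0.06 and -0.31, none of them called. Without replicate 1 of vehicle the first 2 did not pass (-0.13 and -0.11), and the first was also lost without replicate 2 of 5-FU alone (-0.19). The fall with 3-MB-PP1 alone was also lost without replicate 1 of that group (-0.15) and without either library of both drugs (-0.17 each). The step with 3-MB-PP1 after 5-FU was lost without any 1 of its 4 libraries (adjusted p = 0.0530 to 0.202). The fall of 0.22 with 5-FU under 3-MB-PP1 was lost without replicate 1 of both drugs (adjusted p = 0.123).

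EDEM1 (chr3:5229359-5261650), a mannosidase-like lectin that marks glycoproteins for degradation, had 20.7 and 16.2 CPM in vehicle, 18.4 and 18.0 after 5-FU alone, 20.2 and 21.4 after 3-MB-PP1 alone, and 23.2 and 20.9 after 5-FU then 3-MB-PP1. The vehicle libraries enclosed those of 5-FU alone, and no change of EDEM1 passed with all 8 libraries. Its largest value was 0.28 with 3-MB-PP1 after 5-FU (SE 0.11, adjusted p = 0.0600, edgeR), and both libraries there lay above those of 5-FU alone. That value passed without replicate 1 or 2 of vehicle, which enter only the spread (adjusted p = 0.0487 and 0.0444). With both drugs against vehicle the value was 0.26 (adjusted p = 0.0669), and 0.44 without replicate 1 of vehicle (adjusted p = 0.0107).

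The interaction term asked whether the response to 3-MB-PP1 differed between cells that had received 5-FU and cells that had received DMSO. It was called for 2 of the 10 genes, XBP1 and HERPUD1, and for 4.13% of all tested genes (2.12% with a higher and 2.01% with a lower response after 5-FU). XBP1 had -0.11 with 3-MB-PP1 after DMSO and -0.59 after 5-FU, a difference of -0.48 (SE 0.11, adjusted p = 0.0121, edgeR). HERPUD1 had 0.35 after DMSO and -0.17 after 5-FU, a difference of -0.52 (SE 0.13, adjusted p = 0.0221). DESeq2 called XBP1 and did not call HERPUD1 (adjusted p = 0.0999). The call of XBP1 was lost without replicate 1 of vehicle (-0.49, adjusted p = 0.0581) and without replicate 1 of 5-FU then 3-MB-PP1 (-0.48, adjusted p = 0.0528). The call of HERPUD1 was lost in 6 of the 8 fits that left out a library, with differences of -0.42 to -0.57 in these 6 and adjusted p from 0.0557 to 0.107. Under spike-in scaling the differences were -0.85 for XBP1 and -0.82 for HERPUD1, and neither was called.

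**Figure D4:**
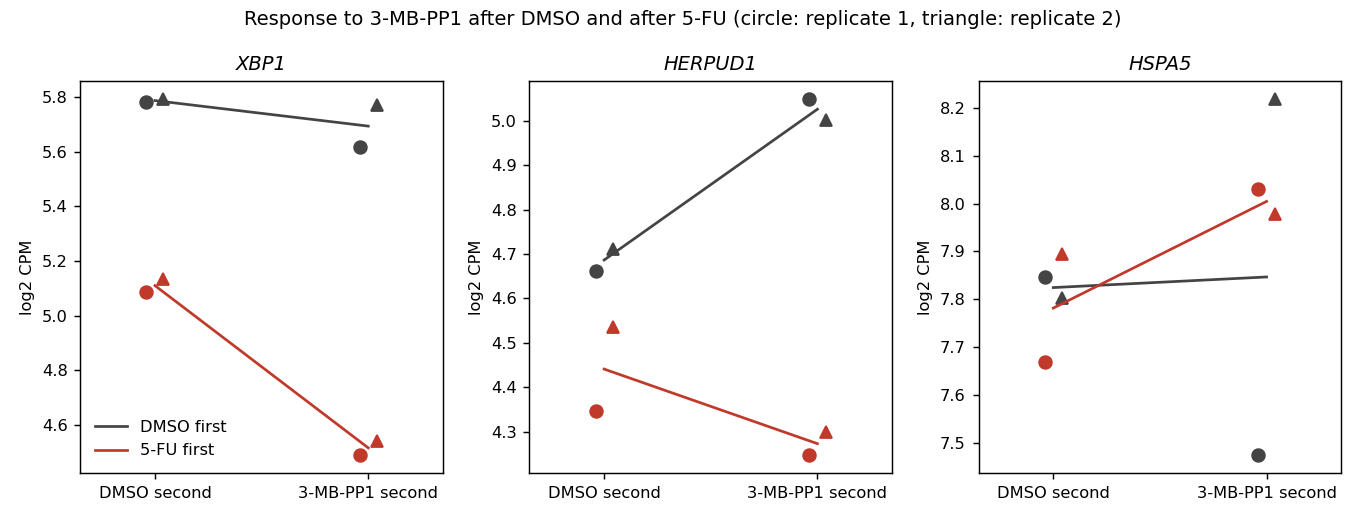
Log2 CPM (y axis) without and with 3-MB-PP1 (x axis) for XBP1, HERPUD1 and HSPA5, after DMSO (grey) and after 5-FU (red); circles are replicate 1, triangles replicate 2, and lines join the group means. The red line falls more steeply for XBP1 (-0.59 against -0.11), the lines part for HERPUD1 (0.35 and -0.17), and the grey circle and triangle of HSPA5 with 3-MB-PP1 enclose its other libraries.

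The other genes of the pathway were counted in lists chosen by function. Of 18 other ER chaperones and folding enzymes, 13 fell with 5-FU alone, 2 rose and 3 did not pass, with a median of -0.21. Over all tested genes 22.7% fell and 21.2% rose. MANF, an ER stress-induced secreted protein, fell by 0.63, SDF2L1, a partner of ER J-proteins, by 0.59, and the oxidase ERO1L by 0.55. SIL1, the nucleotide exchange factor of HSPA5, rose by 0.56 and the sulfhydryl oxidase QSOX1 by 0.47. With 3-MB-PP1 after 5-FU, 6 of the 18 rose and 12 did not pass, where 15.7% of all tested genes rose and 17.2% fell. The rises were led by DNAJC3 (0.25), ERO1L (0.23), PDIA6 (0.23) and PDIA3 (0.22). With 3-MB-PP1 alone 4 rose, where 11.5% of all tested genes rose and 16.9% fell. SDF2L1 fell by 0.25 in that comparison, a value of 0.02 under spike-in scaling. DESeq2 called 2 rises and no fall there, and no gene rose without replicate 1 of vehicle or without replicate 1 of 3-MB-PP1 alone. Leaving out any of the 8 libraries gave 8 to 13 falls and 2 rises with 5-FU alone.

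Of 18 other ERAD genes 17 were tested, and with 5-FU alone 3 rose and 4 fell, shares near the 21.2% and 22.7% over all tested genes, with a median of -0.05 that was 0.07 under spike-in scaling. DESeq2, like the fit without replicate 1 of vehicle, called 1 fall. EDEM2, of the same family as EDEM1, rose by 0.41, FAM8A1, a partner of HRD1, by 0.39 and the lectin OS9 by 0.27, whereas the ubiquitin-conjugating enzyme UBE2J1 fell by 0.38. HERPUD2, the paralogue of HERPUD1, rose by 0.40 with 3-MB-PP1 alone (SE 0.11, adjusted p = 0.00557, edgeR) and by 0.41 with 3-MB-PP1 after 5-FU (SE 0.11, adjusted p = 0.00642), where HERPUD1 had -0.17. EDEM3 rose by 0.32 and 0.36 in the same comparisons. In all, 4 of the 17 rose and 4 fell with 3-MB-PP1 alone, and 5 rose and 1 fell with 3-MB-PP1 after 5-FU. Over all tested genes 11.5% rose and 16.9% fell in the first of these comparisons, and 15.7% rose and 17.2% fell in the other. DESeq2 called 2 rises and 2 falls, and 4 rises and no fall, and leaving out a library gave as few as 2 rises and 1 fall, and 2 rises and no fall.

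Of 14 other sensors and their processing factors 12 were tested. ERN1, which encodes IRE1 alpha and so the enzyme that splices XBP1, had 10.4 CPM in vehicle and 16.9 with 5-FU alone, a rise of 0.70 (SE 0.13, adjusted p = 9.82e-05, edgeR). TRAF2, the adaptor that binds activated IRE1, fell by 0.57 with either drug alone and was 1.26 below vehicle after both. EIF2AK3 (PERK) had -0.26 with 5-FU and 0.16 with 3-MB-PP1, each alone, and ATF6B had 0.06 and 0.17, none of which passed. MBTPS2, the protease that makes the final cut in ATF6, rose by 0.52 with 3-MB-PP1 after 5-FU (SE 0.16, adjusted p = 0.0123). No gene of this list rose in that comparison in DESeq2, or without replicate 1 of 5-FU alone or replicate 1 of both drugs. The list counted 3 rises and 3 falls of 12 with 5-FU alone (21.2% and 22.7% over all tested genes) and 1 rise and 3 falls with 3-MB-PP1 alone (11.5% and 16.9%).

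Of 8 outputs of the PERK arm, 4 fell with 3-MB-PP1 alone and 4 did not pass, with a median of -0.43. Over all tested genes 16.9% fell and 11.5% rose. ATF4, the factor translated when eIF2 alpha is phosphorylated, had 295 CPM in vehicle and 137 with 3-MB-PP1 alone, a fall of 1.11 (SE 0.06, adjusted p = 2.36e-13, edgeR). CEBPB fell by 0.65, DDIT3 (CHOP) by 0.56 and TRIB3 by 0.51. After 5-FU the same 4 genes fell with 3-MB-PP1, by 1.17, 1.15, 0.52 and 0.45, where 17.2% of all tested genes fell. With 5-FU alone 3 rose, ATF3 by 1.76, PPP1R15A (GADD34) by 1.14 and CEBPB by 0.84, and 2 fell, ASNS by 0.38 and ATF4 by 0.30. Over all tested genes 21.2% rose and 22.7% fell, the latter near the 25% of this list that fell. Genes of this list, among them ATF3, PPP1R15A, CEBPB and DDIT3, also answer stresses other than those of the ER. RNA levels do not show the phosphorylation of eIF2 alpha or the translation of ATF4.

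Of 14 genes of the ER translocon and signal peptidase, 3 rose and 5 fell with 5-FU alone. Over all tested genes 21.2% rose, near the 21.4% of this list, and 22.7% fell. SEC61A1, the channel subunit, rose by 0.49, and the signal peptidase subunits SPCS3 and SPCS2 fell by 0.58 and 0.54. With 3-MB-PP1 alone 0 of the 14 passed in edgeR, DESeq2 or limma, and 0 had an unadjusted p under 0.05 in edgeR. Over all tested genes 11.5% rose and 16.9% fell in that comparison. With 3-MB-PP1 after 5-FU 6 rose, where 15.7% of all tested genes rose and 17.2% fell. The 6 were led by SEC61G (0.37), SPCS2 (0.31), SEC63 (0.29) and SPCS1 (0.21). That count was 3 in DESeq2 and ranged from 1 to 8 when a library was left out.

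Falls with 5-FU were not limited to the ER chaperones. Of 14 cytosolic and mitochondrial chaperones, 11 fell, 1 rose and 2 did not pass with 5-FU alone, with a median of -0.40. Over all tested genes 22.7% fell and 21.2% rose. HSPA1B and HSPA1A, near-identical copies whose reads may be shared, fell by 0.90 and 0.81, HSPH1 by 0.68 and DNAJA1 by 0.55. HSPA8, the constitutive cytosolic relative of HSPA5, had 3731 CPM in vehicle and 948 after both drugs, and fell by 0.38 with 5-FU alone. With 3-MB-PP1 after 5-FU it fell by 1.60 (SE 0.04, adjusted p = 7.77e-19, edgeR), the largest fall of this list, where HSPA5 had 0.22. In that comparison 6 of the 14 rose, 3 fell and 5 did not pass, with a median of 0.06. Over all tested genes 15.7% rose and 17.2% fell there. HSP90AB1, the cytosolic relative of HSP90B1, had 0.03 with 5-FU alone, where HSP90B1 fell by 0.50. The difference between relatives was not tested.

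**Figure D5:**
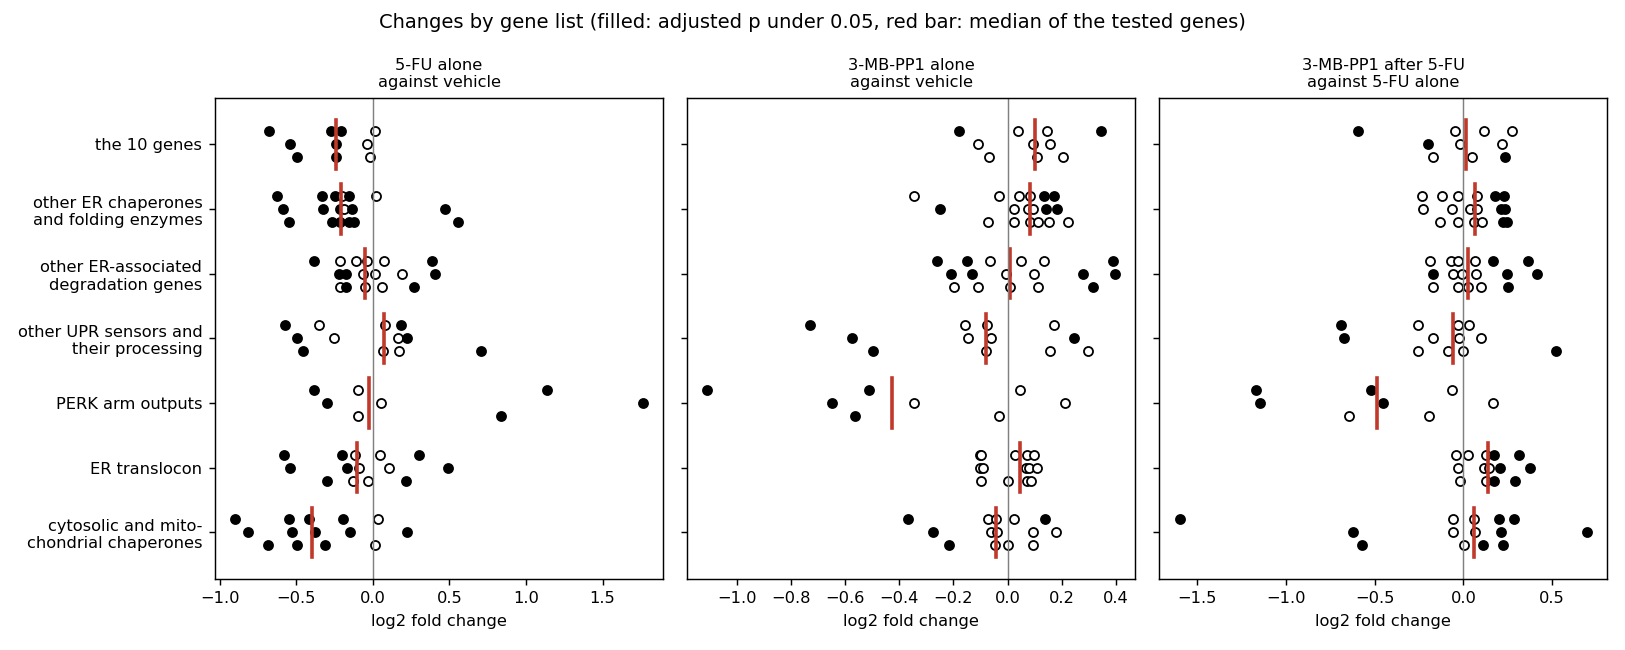
Log2 fold changes (x axis) of the tested genes of each list (rows) in 3 comparisons, from edgeR; each point is a gene, filled points had an adjusted p under 0.05, and red bars are medians. With 5-FU alone the medians of the 10 genes (-0.24), the other ER chaperones (-0.21) and the cytosolic and mitochondrial chaperones (-0.40) lie furthest left of 0. With 3-MB-PP1 alone that of the PERK outputs does (-0.43). The spike-in values of these medians, -0.13, -0.11, -0.29 and -0.22, have the same sign. With 5-FU alone the translocon (-0.10), ERAD (-0.05) and PERK (-0.02) medians also lie left of 0, and that of the sensors (0.07) lies right. With 3-MB-PP1 alone the medians of the sensors (-0.08) and the cytosolic and mitochondrial chaperones (-0.04) also lie left, and those of the other lists lie right.

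The promoter element also lay outside the 10 genes. In all, 44 genes had a window with either form, and 34 of them were tested, 29 of which are not among the 10. Of these 29, 9 fell and 3 rose with 5-FU alone, with a median of -0.17, where 22.7% of all tested genes fell and 21.2% rose. With 3-MB-PP1 after 5-FU 5 of the 29 rose, a share near the 15.7% of all tested genes that rose. In that comparison 1 of the 29 fell, beside 17.2% of all tested genes. The long form stood before CANX, CRELD2, PDIA6 and ERO1LB of the chaperone list, and the short form before HYOU1 and SDF2L1. These genes are among the 29 and were also counted in that list. Of the 9 falls with 5-FU alone, those of CANX, PDIA6, HYOU1 and SDF2L1 are of that list. The other falls were of SERP1, CAMTA1, NAV2, SETD3 and SHCBP1. CANX and PDIA6 are also among the 5 rises with 3-MB-PP1 after 5-FU. Among the 5 genes whose sequences are printed above, 4 fell with 5-FU alone, by 0.24 (CALR and HERPUD1) to 0.68 (XBP1), and HSPA5 had -0.04. Of the 5 whose windows held no exact match to either form, DNAJB9, PDIA4 and SEL1L fell, and ATF6 and EDEM1 had 0.01 and -0.02. DESeq2 did not call the falls of HERPUD1, DNAJB9 and SEL1L (adjusted p = 0.171, 0.0506 and 0.0682).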

How the data were processed

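The 8 libraries (4 treatments, 2 each) were made from total RNA after Ribo-Zero depletion of rRNA, with single-end reads, per the labels' protocols. TopHat2 2.0.13 and hg19 appear in the submitters' processing notes. The counter, annotation and use of strand were not given in the sources used here. The deposited tables held a whole, unnormalized count per RefSeq transcript (41643, with 92 ERCC spike-ins). They also held RPKM, made by the authors from count, length and library total. Of 6260 transcripts without a symbol, 5902 were named through RefSeq (GRCh38.p14, names and promoters alone). Each symbol kept its transcript of highest mean count.

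Counts were tested in R 4.3.3 with edgeR 4.0.16 (filterByExpr, TMM, quasi-likelihood F test, 4 groups in 1 model, 4 residual degrees of freedom) after a check on simulated data. Two-sided p-values received Benjamini-Hochberg adjustment over 15723 genes, and SE came from the F statistic. Alternatives were DESeq2 1.42.0, limma 3.58.1, other scalings (RLE, ERCC), no filter, the longest transcript, a replicate block and leaving out each library. Library depth was 10580635 to 50503796 gene counts, and a count of the 10 genes in a library lay between 91 (DNAJB9) and 58754 (HSP90B1).

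The 10 genes, the lists and the tests were chosen with earlier results of these data known. Named were the 10 genes, up to 4 called genes per list and comparison by size, and fixed relatives (ATF4, DDIT3, EIF2AK3, ERN1, ATF6B, CANX, HSPA8, HSP90AB1, CDKN1A, CDK7). QSOX1 was added after its values were seen. CDK7, the kinase in the series title, had 81.3 CPM in vehicle and 60.8 with 3-MB-PP1 alone. These means are a description, and no change of CDK7 is read from them.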

Additional observations from a re-analysis of the deposited data

Results flagged for a closer look

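XBP1 and HERPUD1 stood out because their response to 3-MB-PP1 differed between cells that had received 5-FU and cells that had received DMSO, by the interaction term. The difference was -0.48 for XBP1 (adjusted p = 0.0121, edgeR) and -0.52 for HERPUD1 (adjusted p = 0.0221) on the log2 scale. The call of HERPUD1 was lost in DESeq2 and in 6 of the 8 fits that left out a library, and that of XBP1 in 2 of these 8. Spike-in scaling gave -0.85 and -0.82, neither called. XBP1 was lower with 3-MB-PP1 in both libraries after 5-FU and in both libraries after DMSO. HERPUD1 was higher with 3-MB-PP1 in both libraries after DMSO and lower in both after 5-FU.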

How the results depend on the processing

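Over 16 alternatives, 960 values of the 10 genes were recomputed, and 846 kept both their direction and their side of the threshold. A call was lost in 64, gained in 18, and the sign changed in 32, of which 1, SEL1L with 3-MB-PP1 alone, had been called. Among the 10 genes, DESeq2 called 4 with 5-FU alone, 1 with 3-MB-PP1 alone and 1 for the interaction, and RLE scaling and limma each called 1 with 3-MB-PP1 alone. Over all genes DESeq2 called 2578 with 3-MB-PP1 alone, 3273 with 3-MB-PP1 after 5-FU and 373 for the interaction, against 4475, 5175 and 650 in edgeR.

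Spike-in scaling called 0 of the 10 genes in each of the 6 comparisons; the spike-in share was 4.16% and 2.52% in the vehicle libraries. Over all genes it called 243 with 5-FU alone (93 higher, 150 lower, against 3336 and 3567), 112 with 3-MB-PP1 alone (107 higher, 5 lower, against 1816 and 2659), 53 with 3-MB-PP1 after 5-FU (41 higher, 12 lower, against 2473 and 2702), 140 with 5-FU under 3-MB-PP1 (20 higher, 120 lower, against 3088 and 3119), 427 with both drugs and 0 for the interaction. Signs changed under it with 5-FU alone for HSPA5 (0.074) and EDEM1 (0.14), with 3-MB-PP1 alone for XBP1 (0.14), SEL1L (0.064) and CALR (0.14), with 3-MB-PP1 after 5-FU for PDIA4 (-0.074), with 5-FU under 3-MB-PP1 for HSPA5 (-0.21) and EDEM1 (-0.14), and for the interaction of HSPA5 (-0.28), HSP90B1 (-0.20), EDEM1 (-0.29) and CALR (-0.27). Its median over all genes was -0.12 with 3-MB-PP1 after 5-FU, -0.19 with 5-FU under 3-MB-PP1 and -0.31 for the interaction.

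Leaving out a library gave 4 to 7 of the 10 genes with 5-FU alone (4 without vehicle replicate 1), 1 to 3 with 3-MB-PP1 alone (1 without replicate 1 of 3-MB-PP1 alone or either library of both drugs) and 0 to 3 for the interaction (0 without vehicle replicate 1 or replicate 1 of both drugs). Over all genes it gave 2965 to 4562 with 3-MB-PP1 alone (fewest without vehicle replicate 1), 3339 to 5372 with 3-MB-PP1 after 5-FU (fewest without replicate 2 of both drugs) and 248 to 920 for the interaction (fewest without vehicle replicate 1). Values that changed sign ranged, with 5-FU alone, from -0.16 to 0.073 for HSPA5, -0.064 to 0.091 for ATF6 and -0.19 to 0.17 for EDEM1. With 3-MB-PP1 alone they ranged from -0.35 to 0.39 for HSPA5, -0.064 to 0.53 for DNAJB9 and -0.0099 to 0.35 for EDEM1, and with 3-MB-PP1 after 5-FU from -0.15 to 0.064 for DNAJB9. With 5-FU under 3-MB-PP1 they ranged from -0.21 to 0.53 for HSPA5 and -0.046 to 0.017 for ATF6. Interaction values ranged from -0.18 to 0.57 for HSPA5, -0.11 to 0.047 for ATF6, -0.58 to 0.017 for DNAJB9, -0.098 to 0.051 for SEL1L, -0.076 to 0.28 for EDEM1 and -0.11 to 0.013 for PDIA4. Fits without a library also have fewer samples, and the cause of these differences was not tested.

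Replicates share a number and nothing else in the labels, and the deviations of same-numbered libraries correlated at -0.14 to 0.13 over 10204 genes. With the number as a replicate block, 6943 genes were called with 5-FU alone, and no call of the 10 genes changed. With the numbers of 3-MB-PP1 alone crossed, an alternative chosen after seeing the data, 6991 genes and 7 of the 10 were called with 5-FU alone, and 3, 4 and 8 of the 10 with 3-MB-PP1 alone, with 3-MB-PP1 after 5-FU and with both drugs, against 2, 3 and 7 without the block.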
